A study of Mus musculus with 40 samples.

Results

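The comparison set c-kit+ bone marrow cells of mice lacking both Dnmt3a and Sting (DNMT3A/STING double knockout, DKO, 3 libraries) against those of wild-type mice (WT, 2 libraries). These are 5 of the 40 libraries of the series. They were chosen by genotype and cell type alone, and 4 further c-kit+ libraries, 2 from the single Dnmt3a knockout and 2 from the single Sting knockout, entered the same fit to share one estimate of the spread between libraries. All 9 libraries were made from polyA RNA of the c-kit+ fraction by an amplifying SMART-Seq2 protocol, and no treatment or age is given in the labels. The series text describes its Dnmt3a knockout as Dnmt3a f/f, Mx1-Cre, a floxed allele recombined by a Cre that interferon switches on in blood and other cells. Whether the double knockout carries that allele, how Sting was removed, the strain background, and whether each library came from a separate animal is not stated in the labels or series text. The p-values therefore measure the spread between these libraries, which may be technical.

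Dnmt3a is a de novo DNA methyltransferase, and its loss in blood stem cells favours self-renewal over differentiation. Sting, encoded by Tmem173, is the adaptor that responds to cyclic dinucleotides made by cGAS on cytosolic DNA. It activates the kinase Tbk1 and the factor Irf3, which turn on type I interferon and, through it, interferon-stimulated genes. The c-kit+ fraction of marrow holds stem cells, progenitors and early precursors of several lineages, and it can carry more mature cells along.

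The 9 libraries held 27437000 to 39973600 reads assigned to genes, with 31192700 to 36437500 in DKO and 31262700 and 39973600 in WT. Kit, the receptor used for selection, stood at 340, 369 and 328 CPM, that is reads per 1000000 reads after scaling, in DKO replicates 1 to 3 and at 303 in each WT library. The levels of Xist and of Y genes, and all summed levels of lists, are per 1000000 gene reads without that scaling. DKO replicate 1 had Xist, which coats and silences an X chromosome in female cells, at 1810 CPM, whereas DKO replicates 2 and 3 and both WT libraries had Xist under 1 CPM and 328 to 345 CPM summed over 4 genes of the Y chromosome. DKO replicate 1 therefore differed from both WT libraries in sex as well as in genotype. Both Dnmt3a knockout libraries also had Xist, at 2171 and 2307 CPM. DKO replicate 2 stood apart among the DKO libraries: its summed late neutrophil and immediate early genes were the highest and its summed resident macrophage genes the lowest.

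Both targeted genes were lower in DKO. Tmem173 (chr18:35733678-35740554) was at 54.2 and 64.4 CPM in WT and at 10.4, 10.5 and 11.5 CPM in DKO. Its log2 fold change was -2.46 ± 0.11 (SE), with an adjusted p of 1.57e-05 in edgeR's quasi-likelihood test. The single Sting knockout had 10.3 and 9.71 CPM and the single Dnmt3a knockout 43.4 and 46.2 CPM. Dnmt3a (chr12:3801559-3914443) was at 89.1 and 79.2 CPM in WT and at 41.9, 50.9 and 49.9 CPM in DKO, a log2 fold change of -0.82 ± 0.12 (SE) with an adjusted p of 0.0153. The single Dnmt3a knockout libraries, at 48 and 47.7 CPM, were within the DKO range, and the Sting knockout libraries, at 78.4 and 97.8 CPM, were near WT. For neither gene did DKO and WT libraries overlap. Which exons were deleted is not given, and a count over the whole gene includes reads from exons that remain.

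Of 16026 genes tested, 202 differed between DKO and WT at an adjusted p under 0.05 (called below), which is 1.26% of genes tested. Of these, 117 were lower in DKO (0.73%) and 85 were higher (0.53%). The falls were larger than the rises. The median absolute log2 fold change was 1.86 among the lowered genes and 0.87 among the raised ones, and 90 lowered against 31 raised genes changed by at least 2-fold. Across all tested genes the median log2 fold change was -0.002 and 49.7% of values were positive. DKO and WT values did not overlap for any of the 202 genes, nor for 32.7% of all genes tested. DKO replicate 2 was the lowest DKO library for 83 of the 117 lowered genes and the highest for 54 of the 85 raised genes, against 35.5% and 35.8% of all genes tested.

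The number of calls depended on the libraries and tools used. The direction of each of the 202 genes did not, but their groups did not overlap, which all but fixed it. Without DKO replicate 1, which leaves DKO libraries of the same sex as WT, 77 genes were called. Without DKO replicate 3 the number was 946, and without WT replicate 1 or WT replicate 2, which leaves 1 WT library, it was 10 or 19. Leaving out Dnmt3a knockout replicate 1 or 2, which enter mainly through the shared spread, gave 86 or 84. DESeq2 called 913 genes, of which 571 were higher and 342 lower, so that the balance of directions turned. It turned likewise without DKO replicate 3, with 595 higher and 351 lower, and with no filter on low counts, with 790 higher and 569 lower. A replicate block gave 518 higher and 314 lower. As only DKO has a replicate 3, the block fits that library on its own and is close to leaving it out. All 202 genes kept their own direction in each of these fits. Of 50 named genes called in DKO against WT, 8 were called in every one of the 17 alternatives: Ccnb1ip1, Hmox1, Lpl, Tmem173, Trf, Pnp, Apobec3 and Pnp2. Another 8, Dnmt3a, Cd163, Gas7, Mcf2l, Rps4l, Mgst2, Chil3 and Vcam1, lost the call only where a WT library was left out. Without DKO replicate 1, 26 of the 50 were not called, without Dnmt3a knockout replicate 1 or 2, 23 or 24, without either Sting knockout library, 14, and with the DKO and WT libraries alone, 32.

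The lowered genes were led by those of resident macrophages, the cells that engulf spent red cells in marrow and spleen and return their iron. Of 24 tested genes in a list of resident macrophage and iron recycling genes, 18 fell, none rose and 6 did not pass the test, a share of 75.0% against 0.73% of all genes tested. Its median log2 fold change was -2.26, against -0.002 for all genes. Its summed level was 2870 and 2662 CPM in WT, against 1034, 646 and 949 CPM in DKO. Every DKO library was below both WT libraries. In the single knockouts the sum was 1067 and 1172 CPM without Dnmt3a and 718 and 669 CPM without Sting, so the WT libraries were the only high ones among the 9.

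Hmox1 (chr8:75093618-75100593) encodes heme oxygenase 1, which breaks down heme. It was at 383 and 309 CPM in WT and at 53.7, 25.4 and 53.6 CPM in DKO. The DKO libraries lay far below both WT libraries, with a log2 fold change of -2.97 ± 0.27 (SE) and an adjusted p of 0.00225. Spic (chr10:88675269-88683023) encodes the transcription factor required for red pulp and marrow iron-recycling macrophages. Its level was 24.1 and 19.1 CPM in WT, against 4.31, 0.814 and 5.07 CPM in DKO (log2 fold change -2.65 ± 0.50 SE, adjusted p = 0.0425). Cd163 (chr6:124304636-124330529), the scavenger receptor for haemoglobin bound to haptoglobin, was at 132 and 125 CPM in WT and at 28.2, 9.19 and 25.2 CPM in DKO (log2 fold change -2.62 ± 0.40 SE, adjusted p = 0.0186). In all 3 genes DKO replicate 2 was the lowest library.

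Siglec1 (chr2:131067801-131086778) encodes the sialic acid receptor CD169 of marrow macrophages. It fell from 53.5 and 59.3 CPM in WT to 9.12, 1.93 and 9.33 CPM in DKO, a log2 fold change of -3.04 ± 0.51 (SE) with an adjusted p of 0.0270. Cd5l (chr3:87357881-87371074), a secreted macrophage protein, fell from 135 and 130 CPM to 14.2, 2.44 and 23.9 CPM (log2 fold change -3.28 ± 0.61 SE, adjusted p = 0.0402). C1qb (chr4:136880126-136886200), a chain of complement C1q, fell from 83.6 and 84.8 CPM to 19.8, 4.0 and 21.3 CPM (log2 fold change -2.48 ± 0.50 SE, adjusted p = 0.0494). These 3 genes were lowest in DKO replicate 2. Replicates 1 and 3 were close for Siglec1 and C1qb and further apart for Cd5l.

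The smaller falls were the tighter ones. Trf (chr9:103208876-103230286), which encodes the iron carrier transferrin, was at 201 and 206 CPM in WT and at 78.3, 67.1 and 83.7 CPM in DKO, a log2 fold change of -1.42 ± 0.13 (SE) with an adjusted p of 0.00225. Vcam1 (chr3:116110020-116129688), an adhesion molecule on marrow macrophages and stroma, was at 546 and 555 CPM in WT and at 325, 277 and 253 CPM in DKO (log2 fold change -0.95 ± 0.10 SE, adjusted p = 0.00342). The other called members included Adgre1, Axl, C1qa, Cd68, Maf, Mertk, Mrc1, Slc11a1 and Slc40a1, with log2 fold changes from -2.45 for Axl, a receptor for apoptotic cells, to -1.09 for Slc40a1, the iron exporter ferroportin. The members that did not pass were Timd4, C1qc, Marco, Blvrb, Fcgr4 and Lyve1, and in DKO replicate 2 Timd4 and Marco had no reads.

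**Figure D1:**
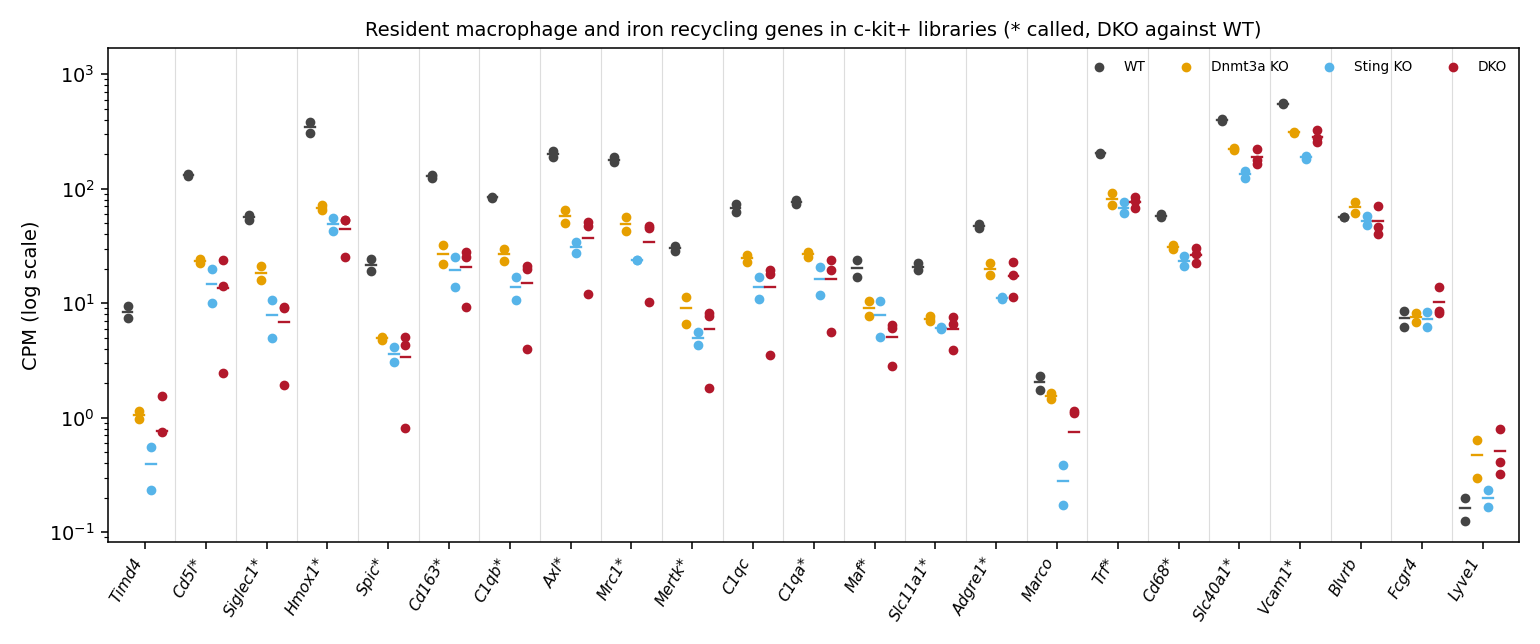
Levels of 23 of the 24 tested resident macrophage and iron recycling genes in the 9 c-kit+ libraries, in CPM on a log axis, with 1 point per library and a bar at each group's mean, ordered by log2 fold change of DKO against WT. Asterisks mark the 17 genes called among those drawn, the WT points stand above the DKO points for each of them, and a library at 0 CPM is not drawn.

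The count of lowered macrophage genes moved with the libraries used. It was 8 of 42 genes called lower without DKO replicate 1 and 20 of 106 without DKO replicate 2, against 18 of 117 with all libraries. It was also lower when a WT or single knockout library was left out, as was the count over all genes. In a bulk sample, fewer cells of a type and less RNA per cell cannot be told apart, and their part in these falls was not tested. In the sorted WT libraries of the series, levels of the called macrophage genes that could be tested there varied by gene and population. In progenitors labelled CMP/GMP, Hmox1 was at 4.72 ± 1.90 CPM, Spic at 0.590 ± 0.450 CPM and Vcam1 at 2.30 ± 1.78 CPM, but Cd163 was at 19.4 ± 2.39 CPM and Trf at 156 ± 89.9 CPM (SD, n = 4 for each). In megakaryocyte-erythroid progenitors (MEP), Slc40a1 was at 72.1 ± 29.3 CPM and Cd163 at 14.7 ± 5.73 CPM (SD, n = 3 for each). These genes were picked after their values were seen. Those libraries came from other sorts than the c-kit+ fraction.

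A few genes of lipid handling and lysosomes also fell. Of 12 lipid handling genes tested, 2 fell (16.7%, against 0.73% of all genes tested) and none rose, with a median log2 fold change of -1.33, and 11 of 12 values were negative. Lpl (chr8:68880555-68906932), lipoprotein lipase, was at 120 and 92.6 CPM in WT and at 23.4, 12.3 and 19.6 CPM in DKO, a log2 fold change of -2.53 ± 0.25 (SE) with an adjusted p of 0.00303. Apoe (chr7:19696244-19701310), the lipid carrier secreted by macrophages, was at 253 and 208 CPM in WT and at 98.1, 54.5 and 93.1 CPM in DKO (log2 fold change -1.49 ± 0.22 SE, adjusted p = 0.0164). In both genes the groups were well apart.

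Of 18 lysosome genes, 3 fell (16.7%, against 0.73% of all genes tested) and none rose: Ctsb and Ctsd, which encode the proteases cathepsin B and D, and Lipa, which encodes lysosomal acid lipase. Ctsb went from 619 and 551 CPM in WT to 411, 364 and 361 CPM in DKO, a log2 fold change of -0.63 ± 0.09 (SE) with an adjusted p of 0.0153. Ctsd and Lipa had log2 fold changes of -0.56 ± 0.08 and -0.76 ± 0.12 (SE). The list's median was -0.08, with 11 negative and 7 positive values between -1.18 and 5.59. An unadjusted p under 0.05 was found for 10 of the 18 genes, against 2676 of all 16026 genes tested.

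Among the other large falls, several genes had no place in a list. Col14a1 (chr15:55307644-55520803), a fibril-associated collagen, fell from 55.5 and 59.7 CPM in WT to 5.60, 0.576 and 7.69 CPM in DKO, a log2 fold change of -3.62 ± 0.66 (SE) with an adjusted p of 0.0364. Sdc3, a heparan sulphate proteoglycan, was at 124 and 125 CPM in WT and at 27.8, 6.37 and 26.8 CPM in DKO (log2 fold change -2.61 ± 0.44 SE). Hpgd, which inactivates prostaglandins, Fcna, a ficolin of macrophages, Kcnj10, a potassium channel, and Rims3, of the synaptic RIM family, had log2 fold changes between -2.78 and -2.55. All 6 had their lowest level in DKO replicate 2, as the macrophage genes did. In contrast, no gene of a list of 16 tested stromal and endothelial genes was called, although 15 of 16 values were negative and their median was -0.79.

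Neutrophil genes stood higher in DKO, though few passed the test. In a list of 14 late neutrophil genes, those of secondary granules and of maturing neutrophils, 1 rose (7.14%, against 0.53% of all genes tested), none fell and all 14 values were positive, with a median log2 fold change of 1.29 against -0.002 for all genes. The list's summed level was 11341 and 6450 CPM in WT, against 25072, 33911 and 12511 CPM in DKO. DKO replicate 3 was close to WT replicate 1, so the groups were separated by little. The sums were 16284 and 18699 CPM in the Dnmt3a knockout and 12566 and 13042 CPM in the Sting knockout.

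The gene that rose was Chil3 (chr3:106147554-106167564), a chitinase-like protein of neutrophil precursors and some macrophages. It was at 208 and 92.5 CPM in WT and at 2591, 3354 and 1134 CPM in DKO. The lowest DKO library was several times above the higher WT library, with a log2 fold change of 3.97 ± 0.50 (SE) and an adjusted p of 0.0104. The single knockouts were also high, at 1558 and 1683 CPM without Dnmt3a and 760 and 1084 CPM without Sting. S100a8 and S100a9, the abundant calcium-binding pair of neutrophil cytosol, had log2 fold changes of 1.38 ± 0.34 and 1.41 ± 0.34 (SE) and adjusted p-values of 0.0844 and 0.0823, and are given as examples chosen after their values were seen. Without DKO replicate 3, the lowest of the DKO libraries in this list, 10 of the 14 genes were called higher, and without DKO replicate 2 the number was 2. Over all genes, 595 and 71 were called higher in these fits, against 85 with all libraries.

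A list named for primary granules, but mixed in its members, stood slightly higher. It holds granule genes such as Mpo and Elane, and also Cebpa, Cebpe, Csf3r and Hp. Of 11 tested, 1 rose (9.09%, against 0.53% of all genes tested), none fell and all 11 values were positive, with a median log2 fold change of 0.43. Hp (chr8:109575128-109579172), haptoglobin, was at 372 and 368 CPM in WT and at 579, 751 and 511 CPM in DKO, a log2 fold change of 0.73 ± 0.14 (SE) with an adjusted p of 0.0446. Lyz2, lysozyme, was the most abundant of 15 monocytic genes, of which none was called. Its level was 772 and 414 CPM in WT, against 2059, 1984 and 932 CPM in DKO (log2 fold change 1.48 ± 0.34 SE, adjusted p = 0.0697). The median of the monocytic list was 0.00, so other members went both ways.

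Eosinophil genes were mostly lower. Of 10 tested, 2 fell (20%, against 0.73% of all genes tested), none rose and 9 values were negative, with a median log2 fold change of -0.69. The summed level was 5197 and 5591 CPM in WT, against 3115, 2546 and 3911 CPM in DKO, and lower still in the Dnmt3a knockout (2294 and 1678 CPM) and the Sting knockout (2404 and 2021 CPM). Ccr3 (chr9:124017825-124031692), the eotaxin receptor, was at 58.3 and 49.3 CPM in WT and at 11.7, 3.36 and 13.4 CPM in DKO, a log2 fold change of -2.50 ± 0.43 (SE) with an adjusted p of 0.0315. Ear2 (chr14:44102654-44103531), an eosinophil ribonuclease with near-identical copies whose reads may be split between them, was at 392 and 407 CPM in WT and at 213, 171 and 264 CPM in DKO (log2 fold change -0.89 ± 0.18 SE, adjusted p = 0.0477). Ccr3 followed the macrophage genes in being lowest in DKO replicate 2. Over all genes, 351 were called lower without DKO replicate 3, against 117 with all libraries. Without DKO replicate 1 the number over all genes was 42. The eosinophil count of 2 became 0 without DKO replicate 1 and 6 without DKO replicate 3. It was also lower when a WT or single knockout library was left out, as was the count over all genes.

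**Figure D2:**
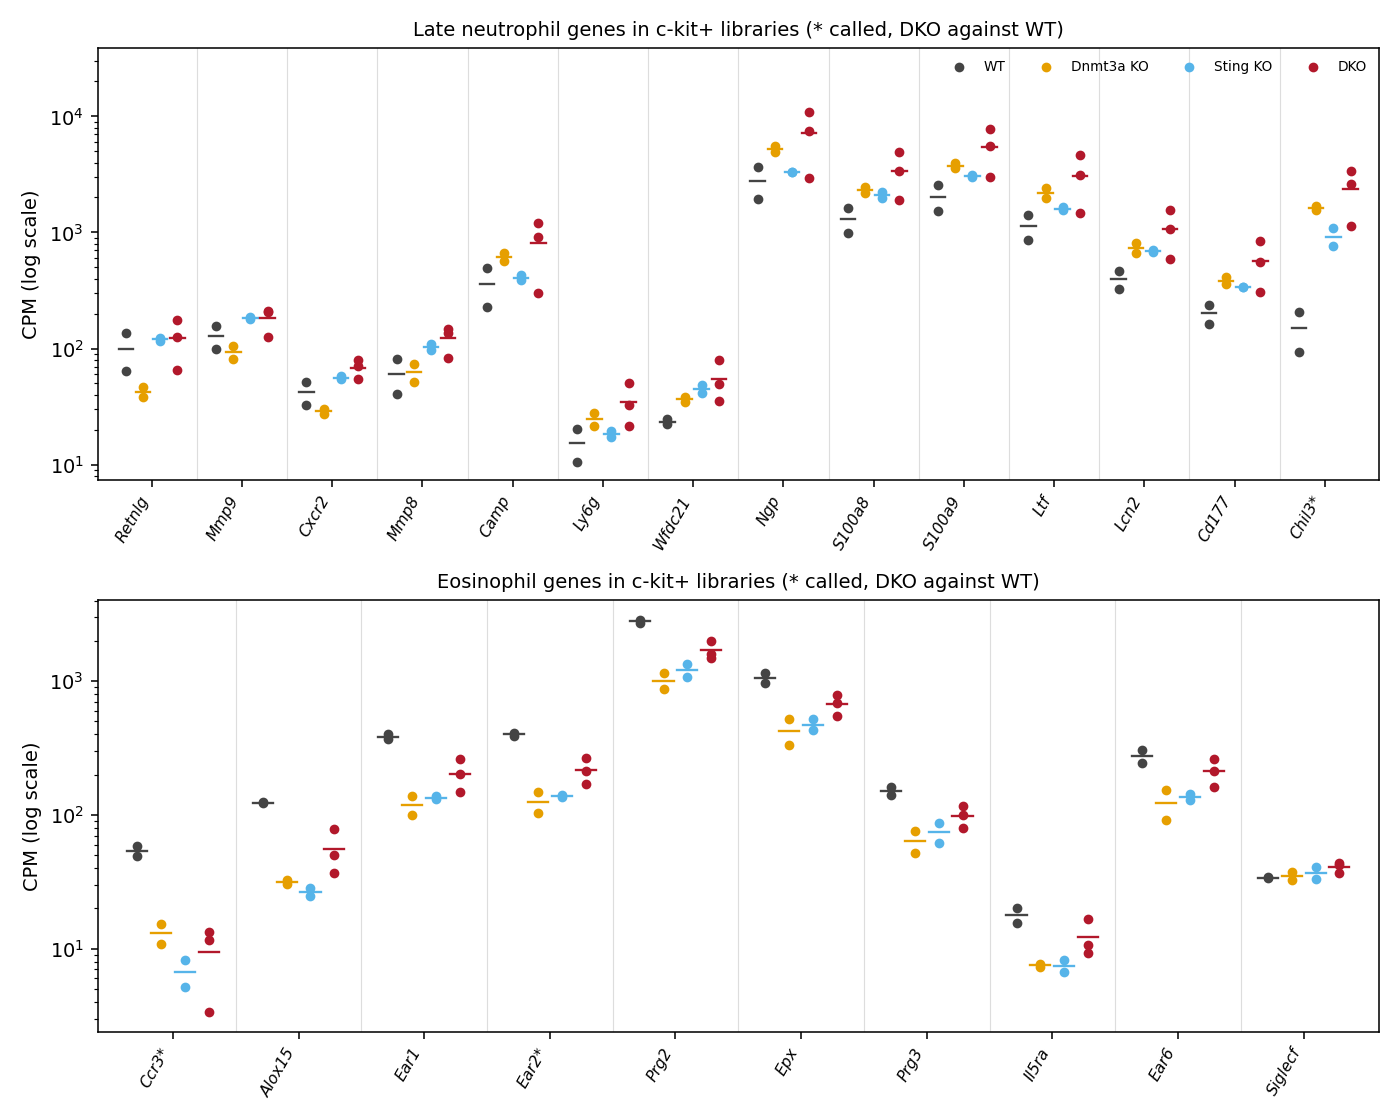
Levels of the 14 late neutrophil genes (top) and the 10 eosinophil genes (bottom) in the 9 c-kit+ libraries, in CPM on a log axis, with 1 point per library and a bar at each group's mean. Asterisks mark genes called in DKO against WT; the highest value of all 14 late neutrophil genes is in a DKO library, and a WT library is highest for every eosinophil gene but Siglecf.

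The genes with the largest rises included others seen in myeloid cells. Mgst2 (chr3:51636912-51682675), a microsomal glutathione transferase, was at 12.2 and 12.0 CPM in WT and at 57.5, 58.9 and 33.9 CPM in DKO, a log2 fold change of 2.05 ± 0.28 (SE) with an adjusted p of 0.0133. Gas7 (chr11:67453257-67688992), a cytoskeletal adaptor, was at 29.3 and 26.6 CPM in WT and at 59.3, 71.8 and 54.2 CPM in DKO (log2 fold change 1.14 ± 0.12 SE, adjusted p = 0.00429). Both genes had all DKO libraries above WT, and Mgst2 was lower in replicate 3 than in the other DKO libraries. Lrg1, a glycoprotein of neutrophil granules, and Pram1, an adaptor of granulocytes, had log2 fold changes of 1.18 ± 0.22 and 1.2 ± 0.24 (SE). Abca13, Ankrd22, Arhgap31, Mcf2l, Scnn1a, Slco4c1 and Sytl1 lay between 1.19 and 1.59. Rps4l (chr6:148354656-148355596), annotated as a transcribed pseudogene related to the ribosomal gene Rps4x, so that its reads are uncertain, was at 2.03 and 2.20 CPM in WT and at 9.26, 8.71 and 7.34 CPM in DKO.

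No interferon-stimulated gene was called higher in DKO. Of 53 tested, 3 fell (5.66%, against 0.73% of all genes tested), none rose and 50 did not pass, with a median log2 fold change of -0.24 and 40 negative values. The summed level was 1623 and 1632 CPM in WT, against 1577, 1345 and 1590 CPM in DKO. On these sums, which lack the scaling used for single genes, the DKO libraries lay just below both WT libraries. In the single Dnmt3a knockout the sum was 2674 and 2366 CPM, and in the single Sting knockout 1572 and 1455 CPM. The list's median log2 fold change against the same WT libraries was 0.71 in the Dnmt3a knockout and -0.16 in the Sting knockout. The difference between DKO and the single Dnmt3a knockout was not tested here.

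The 3 lowered members were Ifit3, Iigp1 and Lgals3bp. Ifit3 (chr19:34583119-34588982), which binds Ifit complexes on viral RNA, was at 2.16 and 2.82 CPM in WT and at 0.528, 0.305 and 0.566 CPM in DKO, a log2 fold change of -2.40 ± 0.42 (SE) with an adjusted p of 0.0332. Iigp1, an immunity-related GTPase, was at 4.22 and 5.00 CPM in WT and at 1.29, 0.712 and 1.19 CPM in DKO (log2 fold change -2.11 ± 0.28 SE, adjusted p = 0.0133). These are low levels. Lgals3bp (chr11:118392747-118401959), a secreted galectin-binding glycoprotein, was at 98.7 and 107 CPM in WT and at 73.8, 54.0 and 67.6 CPM in DKO, against 150 and 140 CPM in the single Dnmt3a knockout (log2 fold change of DKO -0.66 ± 0.12 SE, adjusted p = 0.0383). The count of 3 was lower without either WT library, as was the count over all genes.

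The promoters of such genes often hold the interferon-stimulated response element, which an interferon-activated transcription factor complex binds. Its core, TTTCNNTTTC, was searched on both strands from 250 bases before to 50 bases after each RefSeq start (GRCm38.p6), where N is any base. It was found for 23 of the 41 listed interferon-stimulated genes that had a window (56.1%) and for 458 of 11632 tested genes with a window (3.94%). It was found for 6 of 83 genes lowered in DKO (7.23%), 2 of 64 raised genes (3.13%) and none of 9 lowered macrophage genes. The 6 lowered genes were Aif1, Glul, Ifit3, Pld3, Rpl38 and Serpinb6a, of which only Ifit3 is in the interferon list. Of the other lowered interferon genes, Lgals3bp had a window without a match and Iigp1 had no window. The stretches below, read along each gene's own strand with the core in capitals, are those of the lowered Ifit3, of the raised Apobec3 and Slfn9, and of Oas3, which is described with the interaction. In Oas3 the core reads on the opposite strand.
Ifit3: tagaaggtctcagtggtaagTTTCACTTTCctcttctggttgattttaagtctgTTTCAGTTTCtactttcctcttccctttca
Apobec3: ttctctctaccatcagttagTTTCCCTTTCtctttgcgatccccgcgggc
Slfn9: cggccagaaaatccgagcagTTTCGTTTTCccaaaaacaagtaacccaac
Oas3: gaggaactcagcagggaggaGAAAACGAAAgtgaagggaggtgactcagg
Ifit3 lies at chr19:34583353-34583436 on the plus strand and holds 2 matches, Apobec3 at chr15:79892248-79892297 on the plus strand, Slfn9 at chr11:82991846-82991895 on the minus strand and Oas3 at chr5:120777705-120777754 on the minus strand. A match describes the sequence and was not tested as a bound site.

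Genes that restrict retroviruses and retrotransposons gave 2 rises among 18 tested (11.1%, against 0.53% of all genes tested), with a median log2 fold change of 0.06. Apobec3 (chr15:79892058-79918218) encodes a cytidine deaminase that mutates retroviral DNA. It was at 67.3 and 68.4 CPM in WT and at 193, 192 and 152 CPM in DKO, with a log2 fold change of 1.40 ± 0.11 (SE) and an adjusted p of 0.000629. Both single knockouts were higher still, at 234 and 215 CPM without Dnmt3a and 230 and 224 CPM without Sting. In the sorted populations Apobec3 was at 211 ± 28.4 CPM (SD, n = 4) in Dnmt3a knockout CMP/GMP and 202 ± 50.2 CPM (SD, n = 4) in their own WT, so there the knockout and WT levels overlapped. In MEP it was at 79.9 ± 37.4 CPM (SD, n = 4) in the knockout and 136 ± 14.7 CPM (SD, n = 3) in WT. That log2 fold change, -0.77 ± 0.40 (SE), was not called (adjusted p = 0.436, edgeR's quasi-likelihood test). Slfn9 (chr11:82974316-82991830), of the Schlafen family, was at 48.1 and 43.9 CPM in WT and at 61.3, 70.0 and 73.2 CPM in DKO (log2 fold change 0.57 ± 0.11 SE, adjusted p = 0.0466).

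In the cGAS-Sting pathway itself, Tmem173 fell and Ikbke rose among 16 tested genes. Each is 6.25% of the list, against 0.73% of all genes tested lower and 0.53% higher. Ikbke (chr1:131254600-131279601), a kinase related to Tbk1, was at 53.9 and 52.7 CPM in WT and at 88.6, 103 and 83.1 CPM in DKO, a log2 fold change of 0.78 ± 0.13 (SE) with an adjusted p of 0.0271. None of 12 double-stranded RNA sensing genes was called. Of these, the most abundant, Trim25 and Adar, had log2 fold changes of -0.20 ± 0.12 and 0.08 ± 0.08 (SE). In the DNA methylation machinery only Dnmt3a was called among 15 tested genes (6.67% lower, against 0.73% of all genes tested).

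**Figure D3:**
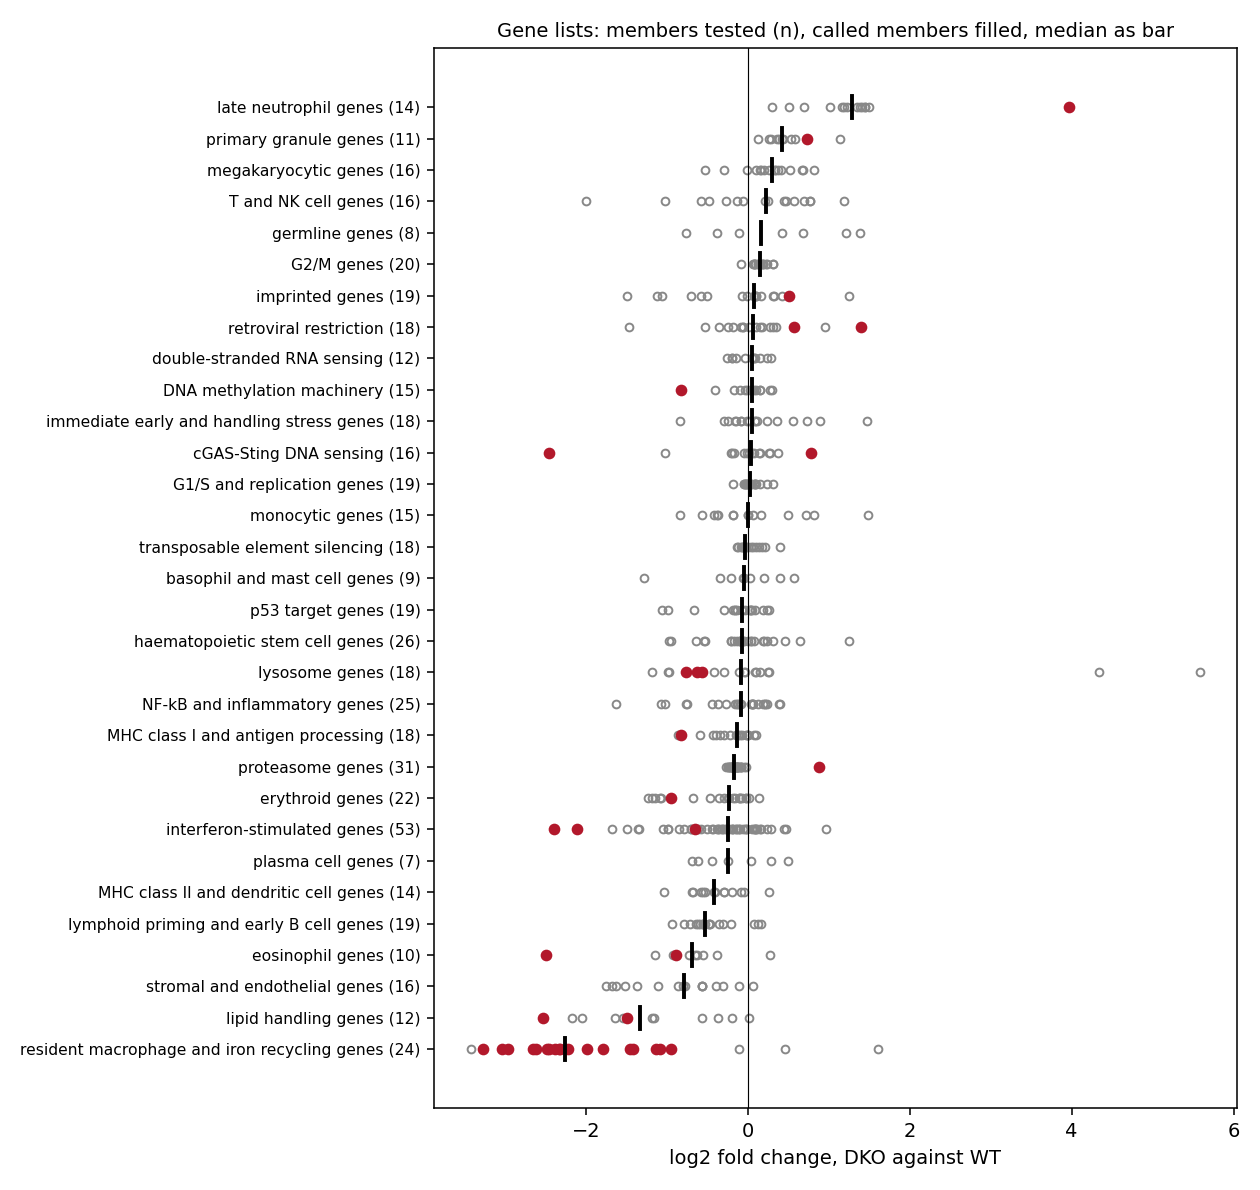
Log2 fold change of DKO against WT for each tested member of the 31 gene lists, with the number tested in parentheses, called members filled and each list's median as a bar; Ccnb1ip1, of the germline list, lies beyond the axis and is not drawn. The resident macrophage list has the lowest median, at -2.26, and the late neutrophil list the highest, at 1.29.

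Stem cell, erythroid, megakaryocytic and lymphoid programmes showed few calls. None of 26 haematopoietic stem cell genes was called, and their median log2 fold change was -0.07. Of 22 erythroid genes 1 fell (4.55%, against 0.73% of all genes tested), and 20 values were negative, with a median of -0.24. Car1 (chr3:14766214-14808365), carbonic anhydrase 1 of red cell precursors, was at 826 and 854 CPM in WT and at 546, 346 and 413 CPM in DKO, a log2 fold change of -0.95 ± 0.17 (SE) with an adjusted p of 0.0355. Globin genes did not separate the groups: Hbb-bs, chosen after its values were seen, was at 1134 CPM in WT replicate 1 but 234 CPM in WT replicate 2. None of 16 megakaryocytic, 19 lymphoid priming, 16 T and NK cell, 7 plasma cell, 9 basophil and mast cell or 14 MHC class II and dendritic cell genes was called.

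Cell cycle and stress lists held no called gene. None of 19 G1/S and replication genes, 20 G2/M genes, 19 p53 target genes or 25 NF-kB and inflammatory genes was called. Of the G2/M genes, 19 of 20 values were positive, with a median of 0.15. In this list 13 of 20 did not overlap between DKO and WT, against 32.7% of all genes tested. An unadjusted p under 0.05 was found for 6 of 20, against 2676 of all 16026 genes tested. Mki67 and Top2a, markers of dividing cells, had log2 fold changes of 0.32 ± 0.09 and 0.15 ± 0.07 (SE). Immediate early genes, which respond to handling of cells, had no call among 18, but their summed level varied within groups, at 4360 and 2293 CPM in WT and at 2627, 5727 and 1627 CPM in DKO. DKO replicate 2 and WT replicate 1 were the high libraries. The MHC class I list gave 1 call among 18 tested (H2-Q7 lower, with close relatives that may share reads). The proteasome list gave 1 among 31 (Psmb5 higher) and the imprinted list 1 among 19 (Impact higher). These are 5.56%, 3.23% and 5.26%, against 0.73% of all genes tested lower and 0.53% higher.

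The called genes were unevenly spread over the chromosomes. Of 541 tested genes on chromosome 14, 25 were called (4.62%), against 0.579% to 2.0% on each of the other autosomes and X. A 5 Mb window from 50 to 55 Mb held 13 called among 61 tested genes. Neither Dnmt3a, on chromosome 12, nor Tmem173, on chromosome 18, lies there. Without DKO replicate 1 the count on chromosome 14 was 13 of 77 called genes, against 25 of 202 with all libraries.

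**Figure D4:**
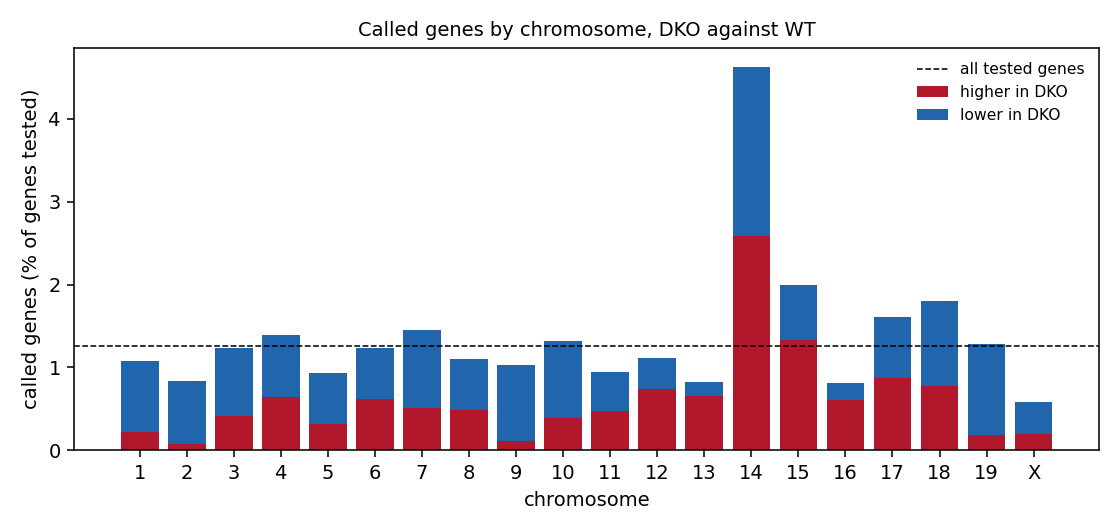
Share of tested genes called in DKO against WT on each chromosome, in percent, split into higher and lower in DKO, with the share over all tested genes as a dashed line. Chromosome 14 stands at 4.62% and chromosome 15, the next, at 2.0%.

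Pnp2 (chr14:50956141-50964751) and Pnp (chr14:50944303-50953412) are neighbouring genes for purine nucleoside phosphorylase. Pnp2 was at 0.188 and 0.545 CPM in WT and at 13.8, 14.8 and 16.6 CPM in DKO, the largest rise among the named genes, with a log2 fold change of 5.29 ± 0.36 (SE) and an adjusted p of 0.000253. Pnp was at 138 and 167 CPM in WT and at 299, 290 and 301 CPM in DKO (log2 fold change 0.96 ± 0.09 SE, adjusted p = 0.00265). The copies are similar, so reads may be divided between them. Psmb5 (chr14:54614120-54617995), a catalytic subunit of the proteasome, was at 19.6 and 24.7 CPM in WT and at 36.9, 39.8 and 45.8 CPM in DKO, while 30 of the list's 31 genes had negative values.

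In the same window Ccnb1ip1 (chr14:50789249-50795728), a ubiquitin ligase needed for meiotic crossing over, was nearly absent outside WT. It had 477 and 816 reads in the WT libraries and 0, 0 and 1 reads in DKO. Scaled for library size, WT was 1800 times DKO, with a 95% counting interval of 322 to 71139. The single knockouts had 2 and 0 reads without Dnmt3a and 0 and 0 without Sting. In the sorted populations Ccnb1ip1 was at 4.64 ± 3.16 CPM (SD, n = 4) in Dnmt3a knockout CMP/GMP and 3.53 ± 1.65 CPM (SD, n = 4) in WT CMP/GMP. In long-term stem cells the knockout had 4.88 ± 5.57 CPM and WT 4.89 ± 3.79 CPM (SD, n = 4 for each). In MEP the knockout had 83.4 ± 59.0 CPM (SD, n = 4) and WT 14.6 ± 6.69 CPM (SD, n = 3). That log2 fold change, 2.51 ± 1.54 (SE), was not called (adjusted p = 0.495, edgeR's quasi-likelihood test). Ccnb1ip1 was thus detected in the knockout in each of these populations.

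The single knockouts give the setting for the DKO values. The 3 knockouts share the same 2 WT libraries, so their fold changes are not independent and are only set side by side. Against WT, 91 genes were called in the Dnmt3a knockout (0.568%) and 124 in the Sting knockout (0.774%). For the 117 genes lowered in DKO the median log2 fold change was -1.86 in DKO, -1.32 in the Dnmt3a knockout and -1.79 in the Sting knockout. For the 85 raised genes it was 0.87, 0.71 and 0.62. Hmox1 had log2 fold changes of -2.97 in DKO, -2.34 ± 0.31 in the Dnmt3a knockout and -2.82 ± 0.31 (SE) in the Sting knockout. Pnp2 had 5.29, 5.19 ± 0.37 and 5.21 ± 0.37 (SE). Chil3 had 3.97, 3.43 ± 0.50 and 2.62 ± 0.49 (SE).

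The interaction term asks whether DKO departs from the sum of the 2 single effects on the log2 scale. It was called for 24 genes (0.150%), 12 in each direction, against 1211 at an unadjusted p under 0.05. A positive value means that DKO was higher than the sum predicts. The count ran from 2 to 128 when 1 of the 9 libraries was left out, being 2 without Dnmt3a knockout replicate 2, 5 without WT replicate 1 and 128 without DKO replicate 2. Of the 10 genes named from it, Apobec3 and Pnp2 were called in all 16 alternatives.

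Oas3 (chr5:120753098-120777684), an interferon-induced enzyme that makes 2-5A from double-stranded RNA, was highest in the single Dnmt3a knockout. It was at 7.91 and 7.04 CPM in WT, 40.3 and 38.5 CPM without Dnmt3a, 13.9 and 12.3 CPM without Sting, and 9.76, 5.66 and 11 CPM in DKO. Its interaction was -2.97 ± 0.34 (SE, adjusted p = 0.0136), and DKO overlapped WT. Ero1lb, an oxidase of the endoplasmic reticulum, had a like pattern for both single knockouts, at 18.3 and 23.9 CPM in WT, 47.2 and 46.5 CPM without Dnmt3a, 52.8 and 51.7 CPM without Sting, and 35.5, 23.9 and 22.2 CPM in DKO (interaction -2.09 ± 0.28 SE). Ero1lb (chr13:12565818-12609533) lies near Lgals8 (chr13:12439402-12464977) and Gpr137b, which were also called in the interaction. So were the neighbours Gm6548 (chr17:78850504-78852544) and Gm26637 (chr17:78881884-78892502). Whether position played a part was not tested.

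For Pnp and Pnp2 the 3 knockouts stood at similar levels, and interactions of -1.02 ± 0.13 and -5.11 ± 0.44 (SE) were close in size to a single knockout's own rise. For Apobec3 all DKO libraries lay above WT and below every single knockout library, and the interaction was -2.07 ± 0.15 (SE). Among positive interactions, Gpr137b (chr13:13357620-13393644), a lysosomal membrane protein, was at 15.6 and 11.3 CPM in WT, 2.75 and 2.24 CPM without Dnmt3a, 1.11 and 1.42 CPM without Sting, and 5.72, 5.05 and 9.66 CPM in DKO. Its interaction was 4.85 ± 0.48 (SE, adjusted p = 0.00937), and DKO lay between WT and the single knockouts. Prg2, which encodes the eosinophil granule's major basic protein, was at 2735 and 2883 CPM in WT, 1146 and 874 CPM without Dnmt3a, 1332 and 1078 CPM without Sting, and 1606, 1493 and 1998 CPM in DKO, again in between. The interactions of Prg2, Ear2, Vcam1 and Ctsh, which encodes cathepsin H, were 1.97, 2.30, 1.43 and 1.24.

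**Figure D5:**
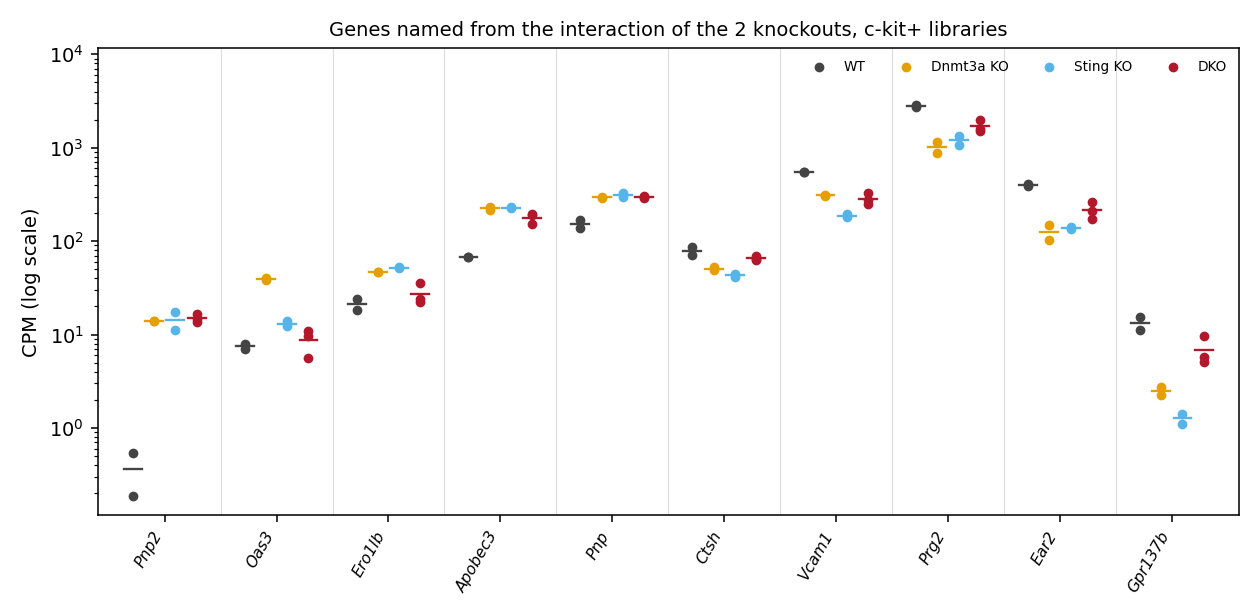
Levels of the 10 genes named from the interaction term in the 9 c-kit+ libraries, in CPM on a log axis, with 1 point per library and a bar at each group's mean, ordered from the most negative to the most positive interaction. DKO lies near WT for Oas3, near the single knockouts for Pnp2 and Pnp, and between WT and the single knockouts for Gpr137b, Prg2 and Ear2.

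Transposable element (TE) transcripts, which DNA methylation helps to silence, changed little. TE reads per 100 gene reads were 3.34, 3.61 and 3.46 in DKO and 3.47 and 3.11 in WT. The means were 3.47 ± 0.14 (SD, n = 3) and 3.29 ± 0.25 (SD, n = 2), a difference of 0.18 with p = 0.5 in a 2-sided exact permutation test, whose smallest possible p was 0.1. The groups overlapped. Of 917 TE subfamilies tested, 2 were called (0.218%), and 103 had an unadjusted p under 0.05, of which 90 were higher in DKO. Over all subfamilies 76.8% of log2 fold changes were positive, with a median of 0.13. With TE reads in place of gene reads as the library size, the median was -0.002, 49.7% of values were positive, 40 of 78 subfamilies with an unadjusted p under 0.05 were higher, and none was called.

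Lx, an old LINE-1 subfamily, rose. It was at 159 and 136 CPM of gene reads in WT and at 287, 346 and 255 in DKO, a log2 fold change of 1.01 ± 0.17 (SE) with an adjusted p of 0.0179. The Dnmt3a knockout libraries, at 255 and 261, were near DKO, and the Sting knockout libraries, at 248 and 159, were split. MuLV-int, the internal part of murine leukaemia virus-like proviruses of the ERV1 family, fell from 97.0 and 105 in WT to 47.7, 50.8 and 55.1 in DKO (log2 fold change -0.98 ± 0.19 SE, adjusted p = 0.0404). The Sting knockout libraries again differed from each other, at 72.7 and 143. Neither subfamily was called without WT replicate 1 or WT replicate 2, and MuLV-int was also not called without DKO replicate 1 or 2 or with DESeq2.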

How the data were processed

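RNA of 9 c-kit+ libraries was compared, grouped by genotype as labelled. The authors deposited raw counts of reads per gene symbol and per TE subfamily. The tools named in the submitters' processing notes are Trim Galore 0.6.7 for trimming, HISAT2 for alignment, featureCounts 2.0.1 for counting and DESeq2 1.34.0, with the genome build mm10. Strand setting, annotation and the handling of multiply mapped reads were not given in the sources used here, so reads of overlapping or antisense genes and of near-identical copies cannot be told apart. Of 40 gene columns, 8 could not be matched to one library and were not used. Positions are those of RefSeq GRCm38.p6, for 32501 symbols and 1015 matched by an older symbol.

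Counts were fitted in edgeR 4.0.16 (quasi-likelihood, TMM scaling, filterByExpr with a minimum count of 10 and total of 15) over all 4 genotypes, with Benjamini-Hochberg adjustment over all genes tested and a threshold of 0.05. CPM are TMM-scaled. TE counts used the gene library sizes and scaling. Named genes are Dnmt3a, Tmem173, the 15 largest rises and falls among called genes of at least 5 CPM with groups not overlapping and symbols other than those of predicted genes, the 3 called members with the smallest p in each list (or the 2 most abundant where none was called), and up to 5 genes per direction of the interaction and 5 called TE per direction. Members and lists were chosen with earlier results of these data known. Alternatives used DESeq2 1.42.0, limma-voom 3.58.1, RLE scaling, no filter, a replicate block, a term for Xist against Y libraries, subsets of libraries and leaving out each library. Libraries of 1 genotype differed beyond counting noise, so none was merged. The counting interval covers counting error only, since reads carried no molecular identifiers. The scripts were tested on simulated data. Values of 1 macrophage list member are not reported here.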

Additional observations from a re-analysis of the deposited data

Results flagged for a closer look

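The 10 genes named from the interaction are listed here because DKO departed from the sum of the single-knockout changes against WT. The test was the interaction test itself (edgeR's quasi-likelihood test). For Pnp2 and Pnp all knockout groups stood at similar levels, so the term there repeats the gap to WT. Whether that gap came from the lost genes was not tested. The interaction log2 values were 4.85 for Gpr137b, 1.43 for Vcam1, 1.97 for Prg2, 2.30 for Ear2 and 1.24 for Ctsh. They were -2.07 for Apobec3, -5.11 for Pnp2, -2.97 for Oas3, -1.02 for Pnp and -2.09 for Ero1lb. All 10 kept their sign in all 16 alternatives. They were picked by p in these same libraries, which all but fixed the sign in advance. DKO replicate 1 and both Dnmt3a knockout libraries were the Xist libraries, so sex and genotype cannot be fully told apart in this term, and with a term for Xist against Y libraries 5 genes were called in place of 24.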

How the results depend on the processing

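With 2 WT libraries, the estimate of the spread sets the calls. The count of genes changed in DKO was 202, against 913 with DESeq2, 1359 with no filter on low counts, 69 with the DKO and WT libraries alone and 73 with a term for Xist against Y libraries, and it ran from 10 to 946 when 1 library was left out. All tested called genes kept their direction in every alternative, which groups that did not overlap all but fixed in advance. At an unadjusted p under 0.05 the count ran from 1552 to 3450. The share of called genes that were higher was 42.1%, against 62.5% with DESeq2 and 58.1% with no filter.

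The interaction count was 24, against 200 with DESeq2, 59 with limma-voom, 446 with no filter and 5 with the Xist term, and from 2 to 128 when 1 library was left out. TE subfamilies called numbered 2, against 7 with DESeq2, 0 with TE library sizes, 11 with no filter, 8 with the DKO and WT libraries alone and 0 to 13 when 1 library was left out. The difference in TE reads per 100 gene reads ran from 0.0057 to 0.363 without 1 library.

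Same-numbered libraries did not deviate together over all genes (correlations from -0.06 to 0.07 over 12 pairs). In groups of 2 libraries the deviations mirror each other, so several of these values repeat. Whether same-numbered libraries shared a day or batch cannot be told from them. With the replicate block 832 genes, 23 interaction genes and 15 TE subfamilies were called. That block fits DKO replicate 3, the only library with that number, on its own. The counts within lists were chosen as results after seeing the data. The causes of these shifts were not tested.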

Other observations

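Several values, chosen after they were seen, separated single libraries or genotypes. The predicted gene LOC108169013 had 13940 and 18656 reads in WT and 0, 0 and 2 in DKO. The Sting knockout libraries had 2 and 20517 reads, so Sting knockout replicate 2 stood with WT. MuLV-int was likewise at 72.7 CPM in Sting knockout replicate 1 and at 143 CPM in replicate 2. MER34B-int, an ERV1 subfamily, was at 0.688 and 0.570 CPM in WT, 8.56, 10.4 and 10.2 CPM in DKO, 8.79 and 0.534 CPM in the Dnmt3a knockout and 9.56 and 1.04 CPM in the Sting knockout, and was not called in DKO.

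Erdr1, of the pseudoautosomal end of the sex chromosomes, had 201 and 118 reads in WT and none in the 3 DKO libraries. It also had none in the 4 single knockout libraries. Gm39972 had 95 and 143 reads in WT and 1, 0 and 0 in DKO, but 55 and 74 in the Dnmt3a knockout and 107 and 716 in the Sting knockout.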
